A study of Homo sapiens with 6 samples.

Results

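The chaperones of the endoplasmic reticulum (ER) lumen that are built around an Hsp70 and an Hsp90 protein were examined in 22Rv1 cells exposed to repeated DNA damage. Transcripts of all 10 genes examined were highest in both libraries of cells grown for 6 weeks without damage, as were 21.7% of all tested genes. Those of all but SIL1 were also lowest in both libraries of cells damaged daily over the same 6 weeks. This order of the 3 groups was found in 6.62% of all tested genes. The margins by which the damaged cells were lowest ranged from wide for HSPA5 to slight for DNAJB9. The 10 genes HSPA5, HYOU1, SIL1, DNAJB9, DNAJB11, DNAJC3, HSP90B1, MANF, SDF2L1 and CRELD2 were chosen by name, for their shared role, with fold changes between damaged and parental cells from the same libraries already known. They are 10 of 29804 symbols in the count table, and all 10 were among the 14672 genes that passed the expression filter in the fit. 22Rv1 is an established line of human prostate carcinoma cells, and phleomycin is a glycopeptide that breaks both strands of DNA as radiation does. Parental cells (WT) were untreated and harvested at week 0. Age matched cells (AM) were grown for 6 weeks without the drug, in parallel with the treated cells. The 6WP cells were given 1 µg/ml of phleomycin for an hour on each week day of those 6 weeks, and were then washed and returned to fresh medium. The labels give all 6 libraries the genotype WT, and the dose on the label of 1 6WP library lacks its volume. Each group had 2 libraries of the same line, and whether they were grown as separate cultures is not given in the sources used here. The p-values therefore measure the spread between these libraries only. Because WT cells were harvested at week 0, time in culture cannot be told apart from anything else that differed between the harvests.

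The ER lumen is where secreted and membrane proteins fold. HSPA5 (also called BiP or GRP78) is its Hsp70: it holds unfolded chains in a cycle of ATP binding and hydrolysis, J-domain proteins such as DNAJB9, DNAJB11 and DNAJC3 speed the hydrolysis, and the exchange factors HYOU1 and SIL1 release ADP so that the cycle can start again. HSP90B1 (GRP94) is the Hsp90 of the same compartment and takes over later folding steps of selected clients. When unfolded proteins accumulate, the sensors ATF6, ERN1 (IRE1) and EIF2AK3 (PERK) start the unfolded protein response (UPR), and ATF6 and the XBP1 protein made downstream of ERN1 raise transcription of these chaperones. HSPA5 that is not occupied by clients also binds the sensors and holds them inactive.

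The UPR factors recognise short promoter elements, so the promoters of the 10 genes were searched for them. The windows came from RefSeq on GRCh38.p14 and ran from 250 bases before to 50 after each gene start, and all 10 genes had one. The ER stress response element (ERSE, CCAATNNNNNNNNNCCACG, on either strand) was matched exactly in HSPA5, HSP90B1 and CRELD2, that is in 30% of the members and in 0.0997% of the 22066 windows of symbols in the count table. The element ERSE-II (ATTGGNCCACG, either strand) was matched in HYOU1 and SDF2L1, against 15 of the 22066 windows. In HYOU1 the first ERSE-II overlapped a match to the XBP1 and ATF6 element TGACGTGG (UPRE), which 0.784% of the windows held. The amino acid response element TGATGNAA, a site of the UPR factor ATF4, was found in 0 of the 10 windows and in 2.81% of all those of the table. SIL1, DNAJB9, DNAJB11, DNAJC3 and MANF held none of these letters in this window, which says nothing of sites elsewhere or of looser spellings. A match is a description of the sequence and not evidence of binding.

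The 5 promoters with an ERSE or ERSE-II are printed because their levels are compared below. Each line gives the 200 bases before the gene start, 5′ to 3′ on the strand of the gene, and the capitals mark the fixed bases of ERSE, ERSE-II and UPRE. The stretches lie at chr9:125241344-125241543 (minus strand) for HSPA5, chr12:103930210-103930409 (plus) for HSP90B1, chr22:49918434-49918633 (plus) for CRELD2, chr11:119057206-119057405 (minus) for HYOU1 and chr22:21642102-21642301 (plus) for SDF2L1.
HSPA5: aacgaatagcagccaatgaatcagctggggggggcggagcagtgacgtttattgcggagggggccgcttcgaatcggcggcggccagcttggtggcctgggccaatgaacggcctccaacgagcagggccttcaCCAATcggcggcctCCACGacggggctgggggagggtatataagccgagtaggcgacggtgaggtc
HSP90B1: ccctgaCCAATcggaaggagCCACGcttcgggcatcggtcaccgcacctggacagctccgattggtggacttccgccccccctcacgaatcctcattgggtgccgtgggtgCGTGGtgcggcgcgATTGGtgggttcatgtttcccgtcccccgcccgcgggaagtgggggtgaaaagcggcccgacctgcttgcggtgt
CRELD2: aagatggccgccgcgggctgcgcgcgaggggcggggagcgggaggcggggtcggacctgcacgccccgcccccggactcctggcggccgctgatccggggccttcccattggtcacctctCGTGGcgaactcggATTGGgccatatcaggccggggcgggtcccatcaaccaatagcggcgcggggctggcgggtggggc
HYOU1: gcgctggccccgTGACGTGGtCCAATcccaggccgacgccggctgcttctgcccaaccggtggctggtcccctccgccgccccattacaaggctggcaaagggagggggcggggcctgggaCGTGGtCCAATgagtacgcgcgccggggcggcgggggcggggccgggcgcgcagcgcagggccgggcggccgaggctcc
SDF2L1: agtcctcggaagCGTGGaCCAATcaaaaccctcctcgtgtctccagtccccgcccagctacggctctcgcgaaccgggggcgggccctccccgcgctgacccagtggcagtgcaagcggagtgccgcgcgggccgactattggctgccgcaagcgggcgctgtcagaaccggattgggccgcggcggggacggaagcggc

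**Figure D1:**
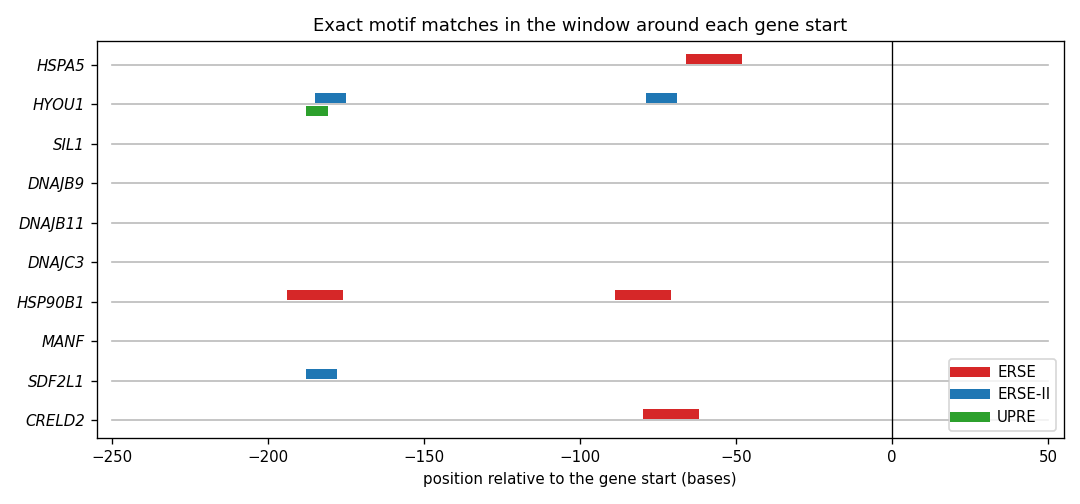
Exact matches to ERSE (red), ERSE-II (blue) and UPRE (green) in the windows of the 10 genes, with the x axis in bases from the gene start. HSPA5 has 1 ERSE from -66 to -48, HSP90B1 has 2, from -194 to -176 and from -89 to -71, and 5 genes have no match.

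The labelled cell type was reflected in the counts: the prostate and epithelial markers KLK3, KLK2, KRT8, KRT18 and EPCAM each exceeded 1 CPM in every library. CPM is the count of a gene relative to the count of all tested genes in its library, scaled by TMM factors. Their levels ran from 38.0 CPM for KLK2 to 353 CPM for KRT18. The keratin KRT8 stood at 250 and 274 CPM in WT, 140 and 165 in AM, and 227 and 178 in 6WP cells. It was lowest in the group where the chaperones were highest, whereas KLK2 was highest there. KLK2 stood at 39.6 and 38.0 CPM in WT, 61.8 and 74.2 in AM, and 47.5 and 48.9 in 6WP cells. For KLK3, KRT18 and EPCAM the AM libraries overlapped those of 6WP cells. The part of such differences in the results was not tested. Fibroblast markers summed to at most 4.231 CPM and leukocyte markers to at most 4.004, with PTPRC and CD3E at 0 counts, and endothelial markers to at most 0.138, with CDH5 and KDR at 0. Library totals ran from 21222201 to 35311945 counts, and 3 counts, taken as the smallest detectable amount, equalled 0.0883 to 0.138 CPM, which covers counting error only. The spread between replicates was wider in 6WP cells, where a chi-square comparison of the counts gave 63.9 per degree of freedom, than in WT (5.67) or AM cells (9.14). The members were far above the floor, with a lowest count of 381.

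HSPA5 (chromosome 9, 125234853 to 125241382, minus strand), the Hsp70 itself, stood at 1545 and 1534 CPM in the WT libraries. In AM cells it reached 2705 and 2874 CPM. In 6WP cells it lay at 444 and 512 CPM. The groups did not overlap, with AM highest and 6WP lowest, and the largest ratio between replicates was 1.154, in 6WP cells. Group means with their SD (n = 2) were 1539 ± 8.04 CPM for WT, 2790 ± 119 for AM and 478 ± 48.3 for 6WP, so AM cells held 5.84 times the HSPA5 level of 6WP cells. In a bulk sample less transcript per cell and fewer cells that express a gene cannot be told apart. No exon of another annotated gene overlaps HSPA5.

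Of the exchange factors, HYOU1 (chromosome 11, 119044188 to 119057227, minus strand), an Hsp110-type protein, had the same order of groups as HSPA5. It was measured at 487 and 481 CPM in WT, 936 and 908 in AM, and 407 and 305 in 6WP cells. The 6WP libraries were both below the WT libraries, but were themselves 1.336-fold apart. Exons of an antisense locus cover 9.77% of the exon bases of HYOU1.

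SIL1 (chromosome 5, 138946724 to 139293557, minus strand) is the other exchange factor and stood apart from the remaining members. Its level was 31.1 and 31.2 CPM in WT, 37.4 and 36.9 in AM, and 32.5 and 31.3 in 6WP cells. The AM mean was 1.19 times the WT mean, and both 6WP libraries lay above the WT libraries and below the AM libraries. Exons of MATR3, SNHG4 and a further locus on the opposite strand cover 9.35% of the exon bases of SIL1.

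DNAJB11 (ERdj3; chromosome 3, 186567403 to 186585800, plus strand), a J protein that also binds clients itself, had the largest fitted rise of the members in AM cells. It stood at 122 and 117 CPM in WT, 303 and 288 in AM, and 91.0 and 73.7 in 6WP cells. Other annotated loci overlap 14.2% of its exon bases, 1 of them on the same strand. DNAJC3 (P58IPK; chromosome 13, 95677139 to 95794988, plus strand), which has no such overlap, went from 149 and 145 CPM in WT to 241 and 220 in AM and 72.0 and 90.3 in 6WP cells. DNAJB9 (ERdj4; chromosome 7, 108569867 to 108574850, plus strand), which brings HSPA5 to the sensor ERN1, was measured at 35.0 and 31.1 CPM in WT, 49.9 and 53.9 in AM, and 28.3 and 30.9 in 6WP cells. For DNAJB9 the nearest 6WP and WT libraries stood at 30.9 and 31.1 CPM, so these groups were barely separate, whereas for DNAJB11 and DNAJC3 the gap was wider than that between replicates.

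HSP90B1 (chromosome 12, 103930107 to 103953931, plus strand), the Hsp90 of the ER, was the member with the most counts. It stood at 3333 and 3226 CPM in WT, 5623 and 5379 in AM, and 1563 and 1159 in 6WP cells. AM cells had 4.04 times the level of 6WP cells, and no library of 1 group reached into another group. Overlapping loci, mostly on the opposite strand, cover 7.95% of its exon bases.

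The accessory proteins had the same order. MANF (chromosome 3, 51385291 to 51389397, plus strand), a small protein that binds HSPA5 and can be secreted, was at 353 and 359 CPM in WT, 727 and 757 in AM, and 157 and 129 in 6WP cells. SDF2L1 (chromosome 22, 21642302 to 21644299, plus strand), a partner of DNAJB11, was at 35.0 and 40.7 CPM in WT, 82.9 and 90.7 in AM, and 20.3 and 13.4 in 6WP cells. CRELD2 (chromosome 22, 49918167 to 49927540, plus strand), an ER protein with EGF-like repeats, was at 167 and 185 CPM in WT, 390 and 397 in AM, and 134 and 69.4 in 6WP cells. AM cells exceeded 6WP cells 5.18-fold for MANF, 5.15-fold for SDF2L1 and 3.88-fold for CRELD2. CRELD2 had the widest gap between the 6WP replicates, 1.924-fold, and 3.25% of its exon bases overlap ALG12 on the opposite strand. The kit preserves strand, but the strand setting of the counting is not given in the sources used here.

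**Figure D2:**
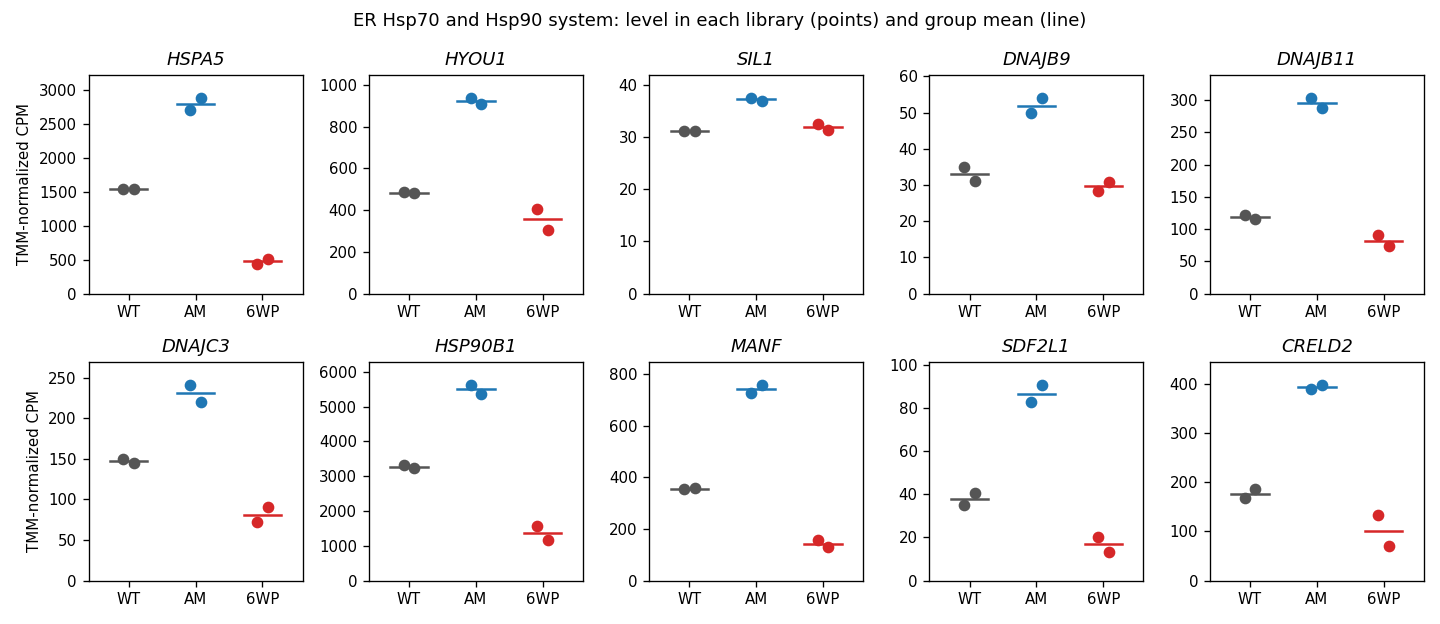
TMM-normalized CPM of each member (y axis, from 0, a scale of its own for each gene) in the 2 libraries of WT, AM and 6WP cells (points), with the group mean as a line. In all 10 panels both AM libraries lie above the other 4, as in 21.7% of all tested genes. In all but SIL1 both 6WP libraries lie below both WT libraries, as in 25.2% of all tested genes.

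Together the 10 genes took 0.634% and 0.631% of all counts in WT cells. Their share was 1.103% and 1.058% in AM cells, but 0.302% and 0.237% in 6WP cells. These shares need no scaling factor, and the groups did not overlap. HSP90B1 and HSPA5 held 74656 and 34609 of the 140163 member counts in WT replicate 1, so the shares mostly reflect these genes. In 9 of the 10 members AM was above WT and WT above 6WP without overlap, an order that 6.62% of all tested genes had. Fold changes between 6WP and WT cells were known when the genes were chosen, so this order is a description and not a test. On the log2 scale and relative to the WT mean, the median member stood at 0.88 and 0.90 in AM cells and at -0.65 and -1.02 in 6WP cells. Medians over all tested genes were within 0.011 of 0 in every library.

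The comparison of AM with WT cells set untreated cells after 6 weeks of culture against those of week 0. It shares its WT libraries with the contrast of 6WP with WT cells, which was known when the genes were chosen. Its p-values are therefore not an independent test of the members. In AM cells 9 of the 10 members were higher at an adjusted p under 0.05 and 0 were lower, where 7.74% of all tested genes were higher. All 10 had both AM libraries above both WT libraries, against 36.9% of tested genes. Fitted log2 fold changes ran from 0.65 for DNAJC3 (standard error 0.13, adjusted p = 0.0162) to 1.31 for DNAJB11 (standard error 0.13, adjusted p = 0.00219). HSPA5 rose by 0.86 (standard error 0.12, adjusted p = 0.00604) and HSP90B1 by 0.75 (standard error 0.16, adjusted p = 0.0188). Among the J proteins, the 95% intervals of DNAJB11 (1.02 to 1.60) and DNAJB9 (0.37 to 0.93) did not overlap. SIL1 had 0.25 (95% interval -0.0007 to 0.51, adjusted p = 0.142). With only the AM and WT libraries fitted, all 10 members were higher, beside 3390 of 14228 tested genes. The count did not fall without a 6WP library, but it fell when a WT or an AM library was left out. The number of all tested genes that were higher also fell from 1136 to between 8 and 32 in these fits, while the fold changes of the members moved little (0.57 to 1.35 for the 9, over all fits without 1 library).

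The comparison of 6WP with AM cells set treated against untreated cells of the same age in culture. What damage changed within cells cannot be told apart here from selection of surviving cells or from the washes and medium changes after each treatment. Whether AM cells were washed and fed in the same way is not given in the sources used here. In 6WP cells 9 of the 10 members were lower at an adjusted p under 0.05 and 0 were higher, where 9.68% of all tested genes were lower. Both 6WP libraries lay below both AM libraries in all 10, against 28.5% of tested genes. The Hsp70 had the largest fall, -2.55 on the log2 scale (standard error 0.13, adjusted p = 0.000177), which ranked 3rd of the 14672 genes by p-value. MANF followed with -2.37 (standard error 0.13, adjusted p = 0.000199), SDF2L1 with -2.37 (standard error 0.20, adjusted p = 0.00174) and HSP90B1 with -2.02 (standard error 0.16, adjusted p = 0.00164). CRELD2 fell by 1.95 and DNAJB11 by 1.84 on this scale, DNAJC3 by 1.51, HYOU1 by 1.37 and DNAJB9 by 0.81. SIL1 had -0.22 (95% interval -0.47 to 0.03, adjusted p = 0.184). Without AM replicate 1 or AM replicate 2 the count was 7, and without any other library it was 9. This comparison shares its 6WP libraries with the contrast that was known when the genes were chosen, and its AM libraries with the comparison above.

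The contrast of 6WP with WT cells was that known one and is given as a description, without p-values. In it 5 of the 10 members, HSPA5, HSP90B1, MANF, SDF2L1 and DNAJC3, were past the threshold as lower, beside 1.37% of all tested genes. Both 6WP libraries lay below both WT libraries in 9 members, beside 25.2% of tested genes. The 6WP level as a fold of the WT level was 0.311 for HSPA5, 0.403 for MANF, 0.415 for HSP90B1, 0.445 for SDF2L1 and 0.551 for DNAJC3. It was 0.576 for CRELD2, 0.691 for DNAJB11, 0.735 for HYOU1, 0.895 for DNAJB9 and 1.02 for SIL1. The count of 5 became 3 without AM replicate 1 or AM replicate 2, 0 without WT replicate 1 or WT replicate 2, and 8 without 6WP replicate 1 or 6WP replicate 2. The number of all tested genes that were lower moved with it, from 201 to 39 or 41 without an AM library, 0 without a WT library, and 2082 or 2018 without a 6WP library. The log2 fold change of HSPA5 meanwhile stayed between -1.82 and -1.60. Other members moved more over these fits: CRELD2 ran from -1.36 to -0.43, SDF2L1 from -1.51 to -0.93 and HYOU1 from -0.68 to -0.28. DNAJB9 (-0.25 to -0.07) and SIL1 (-0.0092 to 0.035) moved less than HSPA5.

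**Figure D3:**
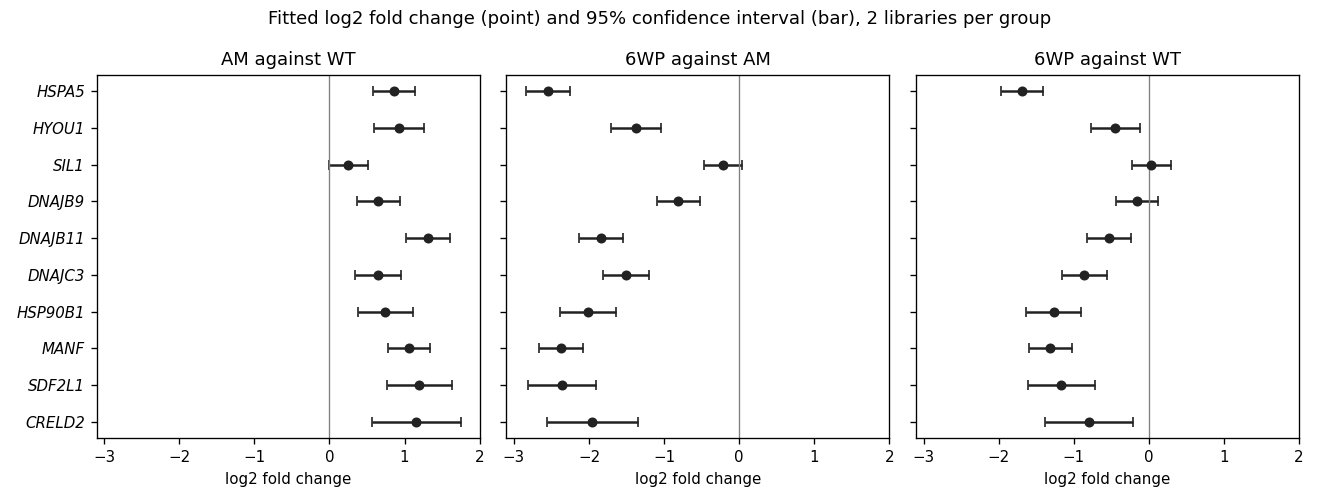
Fitted log2 fold change (x axis) of each member in the 3 comparisons, with points for the estimate and bars for the 95% confidence interval from a fit to all 6 libraries. In the left panel the intervals of 9 genes lie above 0, in the middle panel those of the same 9 lie below 0, and that of SIL1 crosses 0 in each panel.

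The members did not move in fixed proportion, which is seen in their counts as a percentage of the HSPA5 count of the same library, a measure that scaling does not affect. HYOU1 had 31.5% and 31.4% of the HSPA5 counts in WT, 34.6% and 31.6% in AM, and 91.7% and 59.5% in 6WP cells. DNAJB9 had 2.27% and 2.03% in WT, 1.84% and 1.88% in AM, and 6.39% and 6.03% in 6WP cells. For these 2 cofactors, as for SIL1, DNAJB11 and DNAJC3, both 6WP libraries lay above the other 4. DNAJB11 was the J protein whose ratio also rose in AM cells, from 7.88% and 7.60% in WT to 11.2% and 10.0%, before 20.5% and 14.4% in 6WP cells. HSP90B1 had 216% and 210% in WT, 208% and 187% in AM, and 352% and 226% in 6WP cells, again both above the other 4, the second narrowly. MANF kept closer to HSPA5, with 22.8% and 23.4% in WT, 26.9% and 26.3% in AM, and 35.4% and 25.3% in 6WP cells, where the second 6WP library lay below the AM libraries. SDF2L1 and CRELD2 likewise had a second 6WP library, at 2.62% and 13.6%, that did not exceed the AM libraries. HSPA5 had the largest fall of the members in 6WP cells, so a gene that fell less, or not at all, gains on this measure. SIL1, whose CPM was close in WT and 6WP cells, went from 2.01% and 2.03% in WT to 7.32% and 6.11% in 6WP cells. The share of all tested genes with such an order of ratios was not computed. These ratios are given as values and were not tested.

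**Figure D4:**
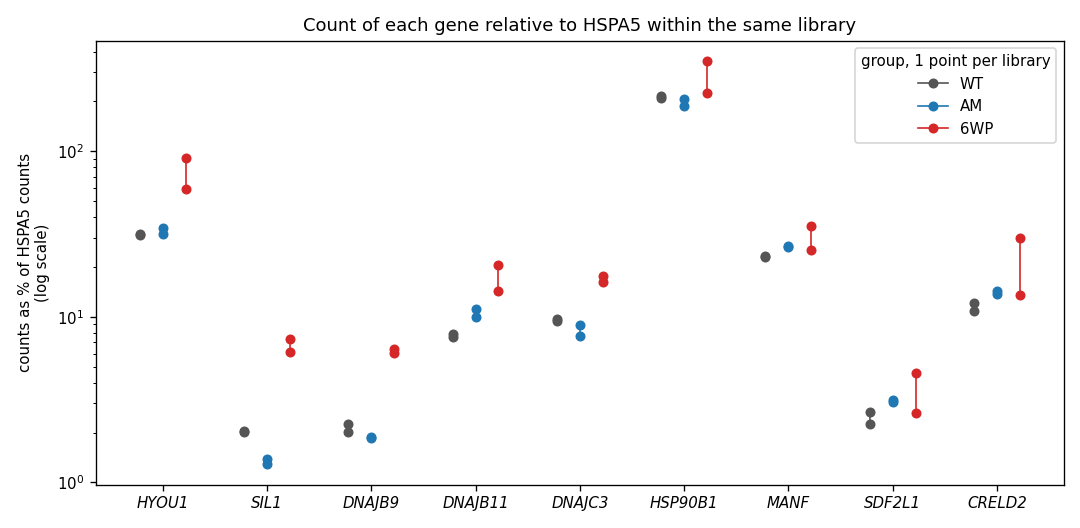
Counts of 9 members as a percentage of the HSPA5 counts of the same library (y axis, log scale), 1 point per library in WT (grey), AM (blue) and 6WP cells (red), with a line joining replicates. For HYOU1, SIL1, DNAJB9, DNAJB11, DNAJC3 and HSP90B1 both red points lie above all others. For CRELD2 the red points are far apart, at 30.1% and 13.6%. HSPA5, the denominator, fell most of the members in 6WP cells, so genes that fell less rise on this scale.

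The 2 replicates of 6WP cells differed more than those of the other groups for most members. HYOU1, SIL1, DNAJB11, HSP90B1, MANF, SDF2L1 and CRELD2 were lower in replicate 2, by ratios of 1.039 for SIL1 to 1.924 for CRELD2. HSPA5, DNAJC3 and DNAJB9 were higher in it, by 1.154, 1.255 and 1.089. In WT and AM cells no member differed between replicates by more than 1.161, the ratio for SDF2L1 in WT.

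Levels of different genes were compared as CPM per kb of annotated exon. On this scale HSP90B1 (251 ± 5.78 CPM per kb, SD, n = 2) and HSPA5 (236 ± 1.23) were the most abundant in WT cells. MANF (166 ± 1.98), HYOU1 (70.9 ± 0.66), SDF2L1 (35.8 ± 3.78), CRELD2 (34.1 ± 2.49) and DNAJC3 (26.3 ± 0.545) followed. The lowest levels were those of DNAJB9 (13.0 ± 1.10), DNAJB11 (12.7 ± 0.392) and SIL1 (7.83 ± 0.013). SDF2L1 and CRELD2 differed by less than their spread, as did DNAJB9 and DNAJB11. In AM cells HSPA5 (427 ± 18.2) and HSP90B1 (420 ± 13.2) were not separated either, and in 6WP cells HSP90B1 stood at 104 ± 21.9 and HSPA5 at 73.2 ± 7.39. The values depend on the length used, since the union of exons includes retained introns. Per kb of the canonical transcript, a choice made after seeing the data, WT levels were 1179 for HSP90B1, 393 for HSPA5, 391 for MANF and 72.7 for DNAJB11. In AM cells HSPA5 and HSP90B1 were then apart, at 711 and 1977, as they were per kb of the longest transcript, at 516 and 832.

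Other parts of the ER folding machinery, from lists of known genes, had medians closer to that of all tested genes than the 10 members had. The members were chosen with fold changes of 6WP against WT known, so this difference is a description. For the counts of these lists, the shares over all tested genes were 7.74% higher and 9.93% lower in AM against WT, and 11.7% higher and 9.68% lower in 6WP against AM. Of 17 tested disulfide isomerases, oxidases and lectin chaperones, 10 were higher and 2 lower in AM than in WT cells, and 11 were lower and 0 higher in 6WP than in AM cells. The 2 that were lower in AM cells, 11.8% of the list, were near the share over all tested genes. Their median log2 fold change in 6WP against AM was -0.76, beside -1.90 for the members and 0.05 for all tested genes. PDIA4, a disulfide isomerase, had the largest fall of that list, -2.45 (standard error 0.11, adjusted p = 0.000151), with 1733 and 1864 CPM in AM and 338 and 319 in 6WP cells. At the other end was PDIA2, with 0.91 (adjusted p = 0.121) at a level of at most 1.163 CPM. Of 16 genes of ER-associated degradation, which returns misfolded proteins to the cytosol, 9 were higher in AM than in WT and 9 lower in 6WP than in AM cells. In the latter comparison DERL3 had the lowest value, -2.22 (standard error 0.29, adjusted p = 0.00397). Among 10 further ER cofactors 2 were higher in AM than in WT, and 3 were lower and 1 higher in 6WP than in AM cells, the last near the share over all tested genes. The J protein DNAJC10 was lowest, at -0.90 (standard error 0.12, adjusted p = 0.00397), and CDNF, a relative of MANF, was highest, with a rise of 1.42 (standard error 0.27, adjusted p = 0.0116) to 4.27 and 5.39 CPM in 6WP cells.

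Of 13 UPR genes (sensors, transcription factors, the proteases that cleave ATF6, subunits of the eIF2 phosphatase and TRIB3), 6 were higher and 2 lower in 6WP than in AM cells, with a median of 0.45. The 6 were ERN1, ATF6, ATF4, DDIT3, ATF3 and the phosphatase subunit PPP1R15A, of which DDIT3, ATF3 and PPP1R15A are named after their values were seen. In AM against WT cells 2 of the 13, DDIT3 and XBP1, were higher and 1 was lower, with a median of 0.06. The lower share of 7.69% was near that over all tested genes. DDIT3 had 1.14 in this comparison (standard error 0.19, adjusted p = 0.00875). XBP1 was 0.51 higher in AM than in WT cells (adjusted p = 0.023) and lower by -0.58 in 6WP than in AM cells (standard error 0.11, adjusted p = 0.013), while its 6WP and WT libraries overlapped (203 and 185 against 211 and 198 CPM). ATF6 was at -0.17 in AM against WT (adjusted p = 0.285) and rose by 0.59 in 6WP against AM cells (standard error 0.10, adjusted p = 0.0092). ATF4 rose by 0.45 in 6WP against AM cells (standard error 0.11, adjusted p = 0.0273). The sensor ERN1 was highest of the list, at 1.44 (standard error 0.18, adjusted p = 0.00363), and the sensor EIF2AK3 lowest, at -0.86 (standard error 0.13, adjusted p = 0.00569). Counts per gene do not separate spliced from unspliced XBP1, nor cleaved from full-length ATF6.

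The Hsp70 and Hsp90 proteins of other compartments were set beside the ER forms. Among 22 cytosolic chaperones and cofactors, 5 were higher in AM than in WT and 11 lower in 6WP than in AM cells, with medians of 0.31 and -0.47. The cytosolic Hsp70 HSPA8 stood at 3564 and 3153 CPM in WT, 2598 and 2357 in AM and 2013 and 2504 in 6WP cells. Its log2 fold change was -0.44 in AM against WT (adjusted p = 0.0735) and -0.13 in 6WP against AM (95% interval -0.47 to 0.20, adjusted p = 0.539). HSP90AA1 was lower in 6WP than in AM cells by -0.88 (standard error 0.205, adjusted p = 0.0225), and HSP90AB1 had -0.48 (adjusted p = 0.128). HSPH1, the cytosolic counterpart of HYOU1, had the lowest value of this list, -1.07 (adjusted p = 0.0128), and BAG2 the highest, 0.22 (adjusted p = 0.342). Of 8 mitochondrial chaperones, 1 was higher and 2 were lower in 6WP than in AM cells, where the higher share of 12.5% was near that over all tested genes. The mitochondrial Hsp70 HSPA9 was 0.42 higher in AM than in WT cells (adjusted p = 0.0368) and at 0.16 in 6WP against AM (adjusted p = 0.323), and TRAP1, the mitochondrial Hsp90, was at 0.21 (adjusted p = 0.206) and 0.08 (adjusted p = 0.644). HSPE1 was lowest, at -0.94 (adjusted p = 0.00834), and HSCB highest, at 0.63 (adjusted p = 0.0271). Differences between the lists were not tested.

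**Figure D5:**
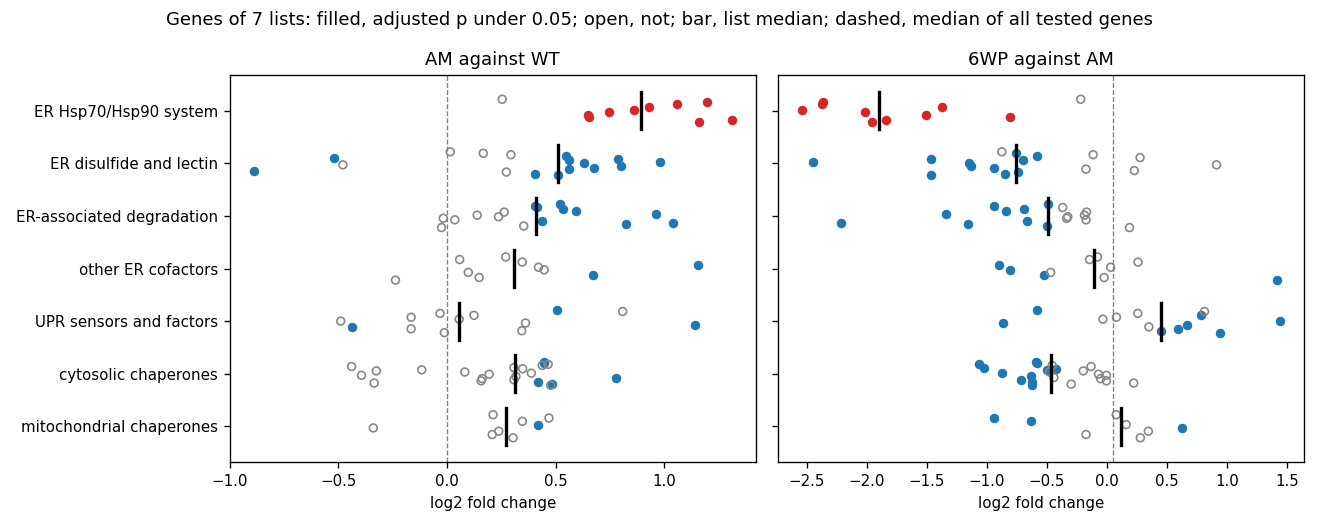
Log2 fold changes (x axis) of the genes of 7 lists in AM against WT (left) and 6WP against AM (right), filled where the adjusted p was under 0.05, with the list median as a black bar and the median of all tested genes as a dashed line. The ER Hsp70 and Hsp90 system has medians of 0.89 and -1.90, the farthest from the dashed line of the 7 lists in both panels. Its genes were chosen with fold changes of 6WP against WT known, so this rank is a description.

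The pattern of HSPA5 over the 6 libraries was also compared with all other tested genes, as the root mean square difference of log2 CPM centred on the mean of each gene. PDIA4 was the closest of all, at 0.122 (Pearson's r = 0.994), followed by the members MANF at 0.207 and HSP90B1 at 0.292. Outside the members, LOC101928235 (0.302, at no more than 1.148 CPM), STARD4 (0.351), PLA2G3 (0.354) and ABCG2 (0.359) came next. In the 6WP libraries LOC101928235 stood at 0.1085 and 0.1057 CPM, at the floor of 3 counts, so its likeness rests partly on values at that floor. SDF2L1 ranked 5th, DNAJC3 23rd, CRELD2 29th, DNAJB11 34th and HYOU1 95th of 14671 genes, while DNAJB9 ranked 547th and SIL1 3757th. The 6 points of each gene share their 3 groups, so these values describe likeness only.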

How the data were processed

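RNA from 22Rv1 cells (WT, AM and 6WP, 2 libraries each) was prepared with a stranded TruSeq kit and sequenced as 100 bp single end reads. The authors aligned reads to hg38 with STAR (2.5.3a), and the submitters' processing notes also name featureCounts (1.5.3) and StringTie (1.3.3). The deposited values are raw counts per gene symbol, unnormalized and not pooled. The strand setting and annotation of the counting are not given in the sources used here, and 0 columns were left out.

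Counts were analysed with edgeR 4.0.16 in R 4.3.3. The 14672 genes passing filterByExpr were scaled by TMM factors, and a quasi-likelihood model of the group means was fitted to all 6 libraries (common dispersion 0.0173). The groups shared the estimated spread of each gene, though replicates differed most in 6WP cells. Standard errors may thus be too small for comparisons with 6WP cells and too large for AM against WT. With only the 2 groups fitted, the adjusted p of HSPA5 was 1.17e-06 (AM against WT) and 0.00562 (6WP against AM), in place of 0.00604 and 0.000177. Two-sided p-values received a Benjamini-Hochberg adjustment across the 14672 genes, with a threshold of 0.05. Standard errors are the fold change divided by the root of F. The log2 CPM used for likeness had a prior count of 2. Exon lengths, positions and overlaps came from GENCODE v44 on GRCh38, and promoter windows from RefSeq. The fit was tested on simulated data. Alternatives were other scalings, filters, DESeq2 1.42.0, pairs of groups, a replicate block and leaving out each library.

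The members and gene lists were chosen with earlier results of these data known. All members were named, with the extremes in 6WP against AM and preset counterparts of each other list, and the 5 non-members most like HSPA5. Values of a few other genes are not reported here, and the protein, methylation and RT-qPCR data of the study were not analysed here.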

Additional observations from a re-analysis of the deposited data

How the results depend on the processing

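Of 420 refits of a member's fold change (10 genes, 3 comparisons, 14 alternatives), 355 kept direction and side of the threshold, 51 kept direction but lost the call, 13 gained it and 1 reversed. The reversal was SIL1 in 6WP against WT cells, 0.034 with all libraries, -0.0092 without 6WP replicate 1 and at most 0.035 over the fits without 1 library. The 9 members lower in 6WP against AM cells were 7 to 9 over all alternatives, with 0 higher. DNAJB9 and CRELD2 were lost without either AM library, with adjusted p of up to 0.0751 and 0.0557. The 9 higher in AM against WT cells were 1 to 10 over fits without 1 library and 9 or 10 otherwise. The 5 lower in 6WP against WT cells were 0 to 8 over fits without 1 library, 3 when only the 2 groups compared were fitted, and 7 with the Wald test of DESeq2 or with no filter beyond 1 count in total. With the replicate number as a replicate block the counts of members were 9, 9 and 5 as before. Same-numbered libraries showed little common deviation (correlations across genes of -0.021 to 0.087), so the number was not taken to pair them.

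The background counts moved more. Genes lower in 6WP against AM cells numbered 1420, and 62 (without AM replicate 2) to 3328 (without 6WP replicate 1) over the alternatives. Those higher in AM against WT cells numbered 1136, and 8 (without WT replicate 1) to 3458 (without 6WP replicate 2). Those lower in 6WP against WT cells numbered 201, and 0 (without WT replicate 1) to 2082 (without 6WP replicate 1). Upper quartile scaling changed the split of all calls from 1711 higher and 1420 lower to 2276 and 1062 in 6WP against AM cells, and from 1136 and 1457 to 689 and 1832 in AM against WT cells. Fits without 1 library leave 1 library in a group, assumed to vary like the others. Levels per kb moved beyond the replicate spread in 23 of 30 cases with the longest transcript, and in 23 with the canonical one. Depth did not limit these genes, whose lowest count was 381.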

Other observations

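Genes outside the 10 members also held an exact ERSE or ERSE-II in the promoter window, and 23 of them passed the expression filter. In 6WP against AM cells 14 of these 23 were lower and 1 was higher at an adjusted p under 0.05, beside 9.68% and 11.7% of all tested genes, with a median log2 fold change of -0.51. In AM against WT cells 14 were higher and 1 lower, with a median of 0.47, beside 7.74% and 9.93% of all tested genes. In 6WP against WT cells 0 were higher and 3 lower, beside 1.63% and 1.37%. The genes named here were chosen after their values were seen. CALR and CANX, the lectin chaperones, had -1.47 (adjusted p = 0.00164) and -0.85 (adjusted p = 0.0042) in 6WP against AM cells. PDIA6, a disulfide isomerase, had -1.47 (adjusted p = 0.00108) and HERPUD1, of ER-associated degradation, -1.34 (adjusted p = 0.00164). FICD, the enzyme that attaches AMP to HSPA5 and removes it, had -1.27 (adjusted p = 0.00653). XBP1 itself holds an ERSE, and ALG12 lies next to CRELD2 on the opposite strand, so that the same match falls in both windows. SYNPO, which encodes an actin-associated protein, was the gene that was higher, at 2.58 (adjusted p = 0.0341). ZNF143, EIF2A and PLS3 held a motif and had values of -0.04, -0.02 and -0.02.

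Within the members, the 5 genes with either element had medians of 0.93 in AM against WT and -2.02 in 6WP against AM cells. The 5 without had 0.65 and -1.51. The ranges of the groups overlapped, since MANF, without a match, fell by 2.37 and HYOU1, with 2 matches to ERSE-II, by 1.37 in 6WP against AM cells.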
